A study of Mus musculus with 14 samples.

Results

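The cytostatic factor pathway holds the ovulated mouse egg at metaphase of the second meiotic division, and 7 of its genes were followed here among the 20638 genes of the count data. They are *Mos*, *Map2k1*, *Mapk3*, *Rps6ka1*, *Rps6ka3*, *Fbxo43* and *Plk1*. They were listed by name for their place in the pathway, with earlier results of these data known, and each is represented by 1 RefSeq transcript. RNA-seq was performed on fully grown oocytes with an intact germinal vesicle (GV), arrested in prophase of meiosis I, from females of 4 to 6 weeks that had received eCG, a gonadotropin from pregnant mares, at 5 IU and 48 h before collection. Each library was made from 20 oocytes pooled from 3 or 4 animals (the study's methods give 3 or 4, the series design gives 3).

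The 14 libraries fall into 5 groups. *Ago2* fl/fl oocytes (n = 3) carry floxed *Ago2* and were the controls of the *Ago2* series. *Ago2* ADH oocytes (n = 3) have lost the floxed allele through Cre driven by the oocyte-specific *Zp3* promoter and keep a knock-in allele whose product binds small RNAs but cannot cleave their targets. *Ago2* null oocytes (n = 2) come from the same crosses and carry floxed *Ago2* with the same Cre, which deletes it. AGO2 protein was not measured here. The study lists the *Ago2* fl/fl controls without Cre, so effects of Cre and of the *Ago2* alleles cannot be told apart. *Dicer* KO oocytes (n = 3) lack *Dicer* through an oocyte-specific deletion and have *Dicer* WT oocytes (n = 3) as controls. The background of the mice was a mixture of transgenic strains, described as mostly C57BL6.

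MOS is a kinase made from stored maternal mRNA during meiotic maturation. It activates the kinase MAP2K1 (MEK1), which activates ERK kinases such as MAPK3, which in turn activate the RSK kinases encoded by the *Rps6ka* genes. This cascade helps EMI2, the product of *Fbxo43*, to inhibit the anaphase-promoting complex (APC/C) and so to keep cyclin B from being destroyed. At fertilization EMI2 is marked for destruction by PLK1, which also acts in spindle assembly. GV oocytes hold these mRNAs before the pathway is active.

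Because translation of several of these mRNAs is set by their 3′ ends, the last stretch of each transcript that holds a polyadenylation signal is shown, 30 bases 5′ to 3′ from the GENCODE transcripts on GRCm38 (the build of all positions given) with the signal hexamer (AATAAA or ATTAAA) in capitals. The stretches lie at chr4:3870661-3870690 (minus strand) for *Mos*, chr9:64185773-64185802 (minus) for *Map2k1*, chr4:133847295-133847324 (minus) for *Rps6ka1*, chrX:159368212-159368241 (plus) for *Rps6ka3*, chr15:36150068-36150097 (minus) for *Fbxo43* and chr7:122169843-122169872 (plus) for *Plk1*, all in the 3′ UTR.
Mos: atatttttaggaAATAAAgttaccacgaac
Map2k1: ctatcaagttaaAATAAAagggacaagaga
Rps6ka1: caaggcctttctAATAAActtacaatccag
Rps6ka3: ggaaatttatatAATAAAgtttcaagtaaa
Fbxo43: ttaaaactaataATTAAAtttaaaatttac
Plk1: agctttatatatATTAAAatgtgtacatct
Neither hexamer was found in the last 100 bases of *Mapk3*. Of 11491 genes with a mean level of at least 1 CPM (the share of a library's transcript counts on a fixed total, TMM-scaled over the 14 libraries), 79.9% held a hexamer in their last 100 bases on the sense strand. The cytoplasmic polyadenylation element, searched as TTTTAT or TTTTAAT in the same window, was in 0 of the 7 genes and in 19.4% of all, though *Map2k1*, *Rps6ka3* and *Fbxo43* held it elsewhere in the 3′ UTR. Other forms of the element were not searched, so 0 matches do not show that an mRNA lacks it. The matches describe the annotated ends and not which ends the oocytes use.

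The depth was 29380403 to 58285057 counts on transcripts per library. Levels in CPM are shares of a library, so less of a transcript and more of the others cannot be told apart. All 10 oocyte markers were detected in each group, with a summed level of 11115 to 17376 CPM. Markers of granulosa and cumulus cells summed to 42.7 to 48.6 CPM in *Ago2* fl/fl libraries. They summed to 30.5 to 34.5 CPM in *Ago2* ADH and 30.5 to 32.2 CPM in *Ago2* null libraries. In the *Dicer* series the sums were 58.3 to 66.5 CPM in WT and 53.3 to 58.1 CPM in KO libraries. Each mutant was lower than its control without overlap. Without *Cyp19a1* the sums were 11.4 to 12.3 CPM in *Ago2* fl/fl, 9.83 to 10.7 in *Ago2* ADH and 9.27 to 9.97 in *Ago2* null. They were 8.76 to 9.44 CPM in *Dicer* WT and 7.22 to 10.2 CPM in *Dicer* KO libraries, which overlap. Markers of theca cells and stroma summed to 4.05 to 10.4 CPM in *Ago2* ADH, above the 2.89 to 3.91 CPM of *Ago2* fl/fl. In the other 3 groups they summed to 2.42 to 3.85 CPM. Without *Cyp11a1* the sums overlapped, at 1.76 to 2.92 CPM in *Ago2* ADH and 1.93 to 2.22 CPM in *Ago2* fl/fl libraries. Markers of blood and endothelium summed to 32.2 to 44.0 CPM over the 5 groups, and to at most 0.301 CPM without *Pecam1*. The part of all these markers in the results was not tested. The targeted *Ago2* was at 24.7 ± 0.771 CPM (SD, n = 3) in *Ago2* fl/fl, 13.1 ± 0.726 (n = 3) in *Ago2* ADH and 6.22 ± 1.35 (n = 2) in *Ago2* null libraries. *Dicer1* was higher in *Dicer* KO than in *Dicer* WT libraries, 1804 ± 129.7 against 758 ± 18.2 CPM (SD, n = 3 each), and counts per transcript do not show which exons were read. Against *Ago2* fl/fl, *Dicer1* was also higher in *Ago2* ADH (log2 fold change 0.674, adjusted p = 2.11e-10, edgeR) and *Ago2* null libraries (0.594, adjusted p = 6.41e-08). *Ago2* was lower in *Dicer* KO than in *Dicer* WT libraries (-0.56, adjusted p = 0.000545). The rise of *Dicer1* was thus not particular to the *Dicer* deletion, and its cause was not tested. Lane numbers deposited with the counts put each *Ago2* genotype on a separate lane, so its effect and that of the lane cannot be told apart, and each *Dicer* library on a lane of its own. Reads with several alignments, tallied apart, amounted to 0.557 to 0.597 per transcript count in *Ago2* fl/fl, 1.57 to 1.66 in *Ago2* ADH and *Ago2* null, 0.388 to 0.536 in *Dicer* WT and 0.939 to 1.19 in *Dicer* KO libraries, and the part of this in the results was not tested.

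Per kilobase of transcript, which allows genes to be compared, the mean level over the 14 libraries was highest for *Map2k1*, at 136 CPM per kb. *Mos* followed at 100.5, *Mapk3* at 75.1, *Plk1* at 67.9 and *Fbxo43* at 21.6 CPM per kb. The RSK genes were low, *Rps6ka3* at 2.77 and *Rps6ka1* at 2.54 CPM per kb. Of 14830 genes ranked on this scale, 97.3% lay below *Map2k1* and 96.3% below *Mos*, but 48.3% below *Rps6ka3* and 47.1% below *Rps6ka1*. Which mRNA of the set was most abundant depended on the group. In *Ago2* fl/fl oocytes *Mos* led with 144 ± 7.22 CPM per kb (SD, n = 3) against 104 ± 3.24 for *Map2k1*, and in *Ago2* ADH oocytes *Map2k1* led with 137 ± 6.77 against 81.2 ± 0.929 for *Mos*.

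**Figure D1:**
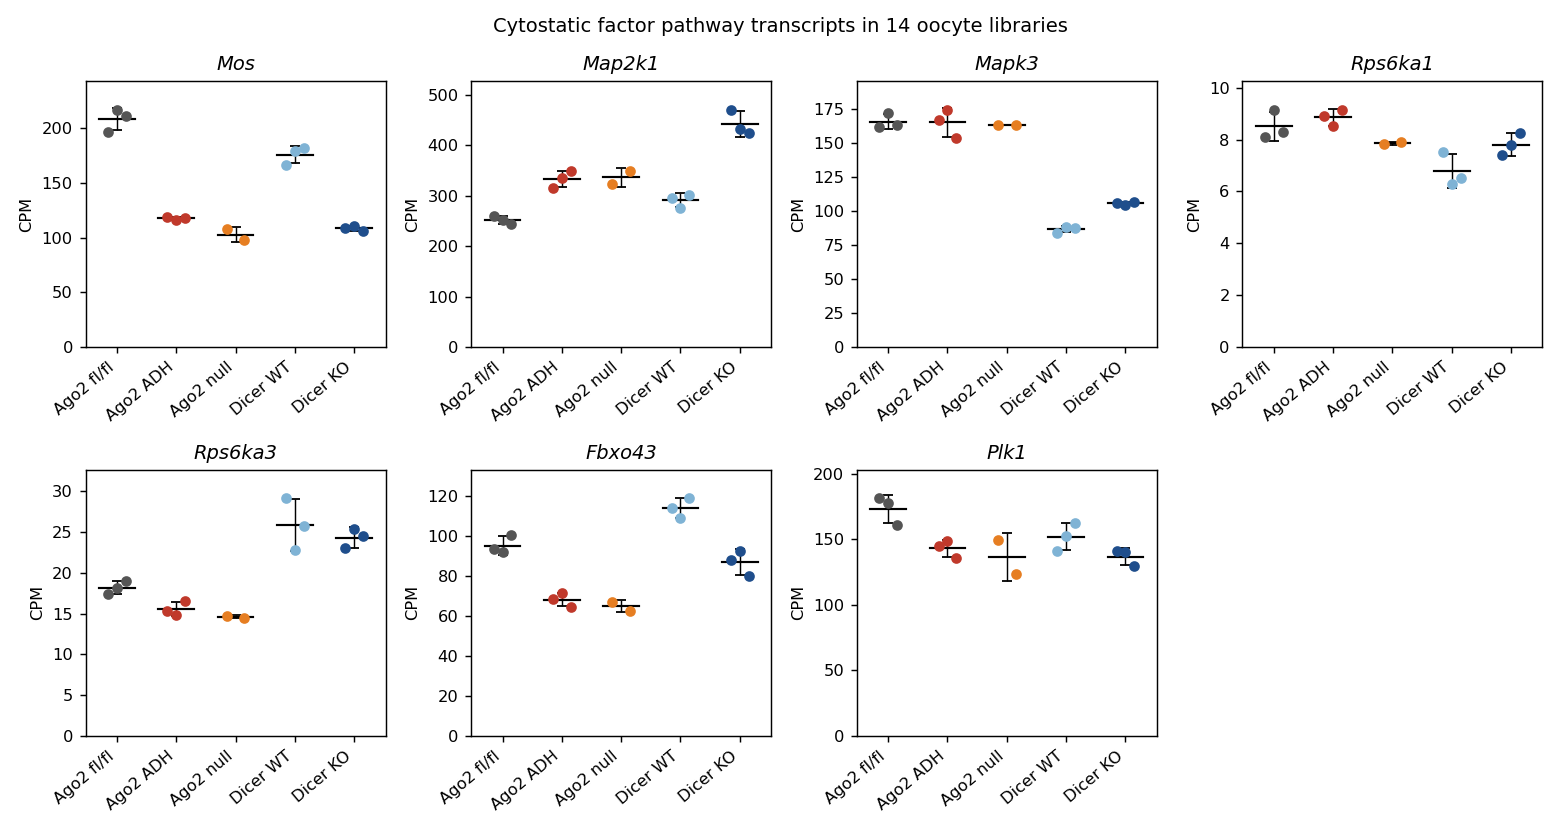
CPM of the 7 genes in the 14 libraries, with 1 panel per gene, groups on the x axis and CPM on the y axis from 0. Points are libraries, horizontal bars are group means and error bars are SD. *Mos* and *Fbxo43* are lower and *Map2k1* is higher in each mutant group than in its control, while *Mapk3* differs most between the *Ago2* and the *Dicer* series.

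Transcripts were tested by edgeR's quasi-likelihood test on all transcripts of each comparison and called up-regulated or down-regulated where the Benjamini-Hochberg false discovery rate (FDR) was under 1%. All 7 genes passed the filter on low counts in every comparison. Between *Ago2* ADH and *Ago2* fl/fl oocytes 1 gene was up-regulated and 3 were down-regulated, where 40.7% of all 18835 transcripts tested were called, 20.5% up and 20.1% down. The *Ago2* null comparison gave the same numbers, 1 up and 3 down, where 37.2% of all transcripts were called, 18.1% up and 19.1% down. The *Dicer* KO comparison gave 2 up and 2 down, where 34.5% were called, 16.7% up and 17.8% down. Thus 57.1% of the 7 genes were called each time, and with so few genes nothing is read from the excess over the background. The *Ago2* ADH and *Ago2* null comparisons share the *Ago2* fl/fl libraries and are not independent of each other. The p-values measure the spread between these pooled libraries.

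*Mos* (NM_020021, chr4:3870658-3872105), the kinase at the head of the cascade, was down-regulated in each mutant. It was at 197, 217 and 212 CPM in *Ago2* fl/fl, 119, 116 and 118 CPM in *Ago2* ADH, and 108 and 97.8 CPM in *Ago2* null libraries. It was at 167, 179 and 183 CPM in the *Dicer* WT and 109, 111 and 106 CPM in the *Dicer* KO libraries. Every mutant library lay below every control library of both series. In *Ago2* ADH oocytes *Mos* fell by 0.78 on the log2 scale (SE 0.0523, adjusted p = 3.90e-10, edgeR), or by 41.7% (95% interval of the change -46.0% to -37.1%). In *Ago2* null oocytes it fell by 0.98 (SE 0.0676, adjusted p = 4.14e-09), and in *Dicer* KO oocytes by 0.69 (SE 0.0623, adjusted p = 3.25e-08). These calls held with each library left out in turn. Among all transcripts, 7.84% had a lower log2 fold change than *Mos* in *Ago2* ADH, 6.27% in *Ago2* null and 10.9% in *Dicer* KO oocytes.

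The mean *Mos* level was highest in *Ago2* fl/fl (209 ± 10.5 CPM, SD, n = 3), then in *Dicer* WT (176 ± 8.16, n = 3), *Ago2* ADH (118 ± 1.35, n = 3), *Dicer* KO (109 ± 2.39, n = 3) and *Ago2* null oocytes (103 ± 7.20, n = 2). Only the libraries of the last pair in this order overlapped. Between libraries of a group *Mos* varied by 1.14% to 7.0% of its mean, where counting error alone gives 0.922% to 1.71%. The lowest value, in *Ago2* ADH libraries, was under the counting error of that group (1.29%).

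*Map2k1* (NM_008927, chr9:64185769-64253605), which encodes the kinase that MOS phosphorylates, was up-regulated in each mutant, opposite to *Mos*. It had 259.8, 253 and 244 CPM in *Ago2* fl/fl, 316, 335 and 349 in *Ago2* ADH, and 323 and 350.1 in *Ago2* null libraries. In the *Dicer* series it had 297, 277 and 302 CPM in WT and 471, 433 and 424 CPM in KO libraries. No mutant library overlapped its controls, and in the order of means (*Dicer* KO, *Ago2* null, *Ago2* ADH, *Dicer* WT, *Ago2* fl/fl) only *Ago2* null and *Ago2* ADH overlapped. The log2 fold change was 0.45 in *Ago2* ADH (SE 0.0496, adjusted p = 3.88e-07, edgeR), 0.46 in *Ago2* null (SE 0.0573, adjusted p = 5.55e-06) and 0.61 in *Dicer* KO oocytes (SE 0.0622, adjusted p = 1.97e-07), or 36.7%, 37.2% and 52.4% more transcript. Leaving out any library kept these calls. Though called with small p-values, these increases are modest among all transcripts, as 23.6%, 24.1% and 18.6% of transcripts had a higher log2 fold change.

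**Figure D2:**
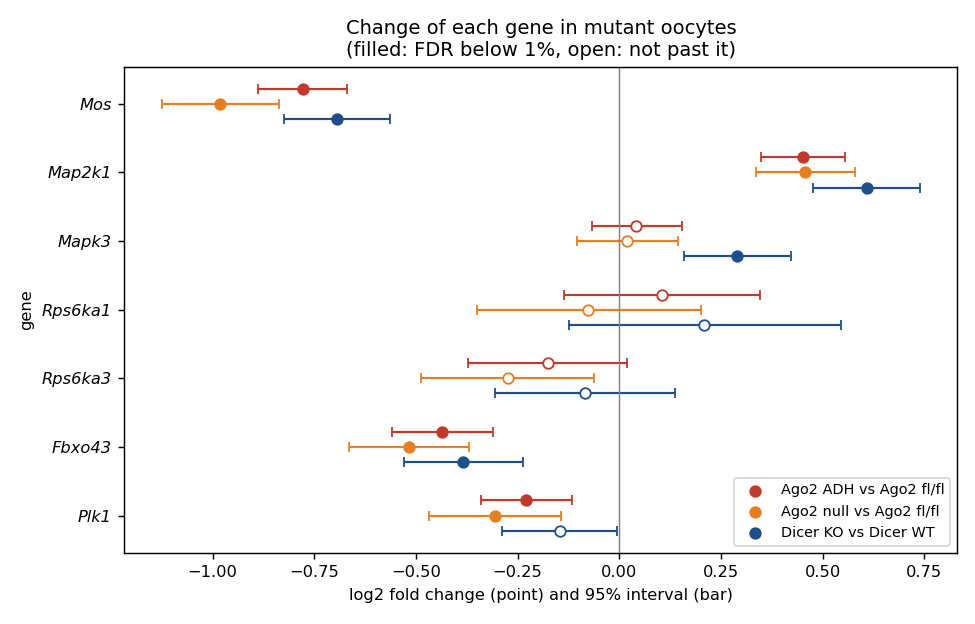
Log2 fold change of each gene (x axis) in *Ago2* ADH and *Ago2* null oocytes against *Ago2* fl/fl and in *Dicer* KO oocytes against *Dicer* WT. Bars are 95% intervals, filled points passed an FDR of 1% and open points did not. *Mos* lies between -0.98 and -0.69 and *Map2k1* between 0.45 and 0.61, and the *Rps6ka1* intervals include 0.

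Because *Mos* and *Map2k1* moved in opposite directions, the ratio of their counts per kb within a library separated mutants from controls more widely than either gene. It was 1.39 ± 0.102 in *Ago2* fl/fl and 1.02 ± 0.0708 in *Dicer* WT oocytes (SD, n = 3 each). It was 0.594 ± 0.0337 in *Ago2* ADH (n = 3), 0.516 ± 0.0650 in *Ago2* null (n = 2) and 0.413 ± 0.0213 in *Dicer* KO oocytes (n = 3). The lowest control library had a ratio of 0.946 and the highest mutant library 0.632. Since the ratio was formed after both directions were known, it is given with no test.

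*Mapk3* (NM_011952, chr7:126759626-126765816) encodes ERK1, an ERK kinase activated by MAP2K1. It was at 162, 172 and 163 CPM in *Ago2* fl/fl, 167, 174 and 153 CPM in *Ago2* ADH and 163 and 163 CPM in *Ago2* null libraries, so the *Ago2* groups overlapped. In the *Dicer* series it was lower throughout, at 84.0, 88.1 and 87.4 CPM in WT and 106, 104 and 106 CPM in KO libraries, with no overlap. The log2 fold change was 0.04 in *Ago2* ADH (95% interval -0.07 to 0.15, adjusted p = 0.521, edgeR) and 0.02 in *Ago2* null oocytes (-0.10 to 0.14, adjusted p = 0.809), and both values were at or just below 0 with total count scaling and with all 5 groups in one fit. In *Dicer* KO oocytes *Mapk3* was up-regulated by 0.29 (SE 0.0628, adjusted p = 0.000897), with each library left out in turn too. The control groups of the series had 165 ± 5.36 and 86.5 ± 2.21 CPM (SD, n = 3 each), a gap larger than any change of *Mapk3* between mutant and control. The series differ in mice and lanes, and this gap was not tested. In the order of means the *Ago2* groups came first and overlapped each other, and *Dicer* KO and *Dicer* WT followed without overlap.

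The ratio of *Map2k1* to *Map2k2*, the other MEK gene, per kb was 10.6 ± 1.26 in *Ago2* fl/fl and 10.7 ± 0.918 in *Ago2* ADH libraries, and *Map2k2* rose as well (log2 fold change 0.43 in *Ago2* ADH, SE 0.0832, adjusted p = 0.000251). In *Dicer* WT and KO libraries that ratio was 21.7 ± 0.827 and 26.7 ± 2.92.

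**Figure D3:**
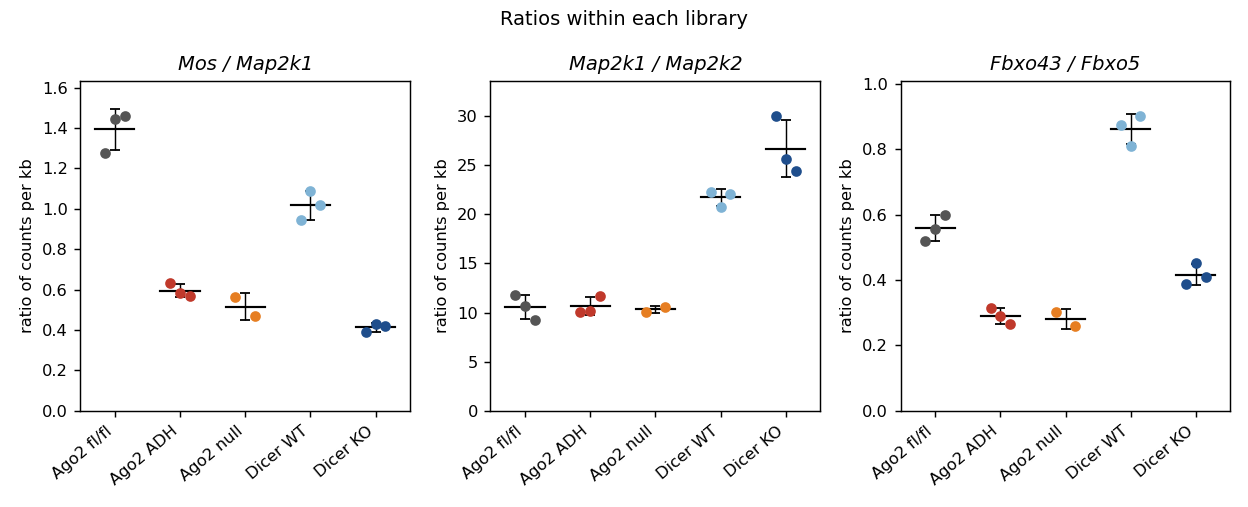
Ratios of counts per kb within each library for 3 pairs of genes, by group. Points are libraries, horizontal bars are means and error bars are SD, and every y axis starts at 0. *Mos* to *Map2k1* and *Fbxo43* to *Fbxo5* are lower in every mutant library than in its controls, and *Map2k1* to *Map2k2* overlaps among the *Ago2* groups.

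The RSK kinases, the substrates of ERK in this pathway, were low for both genes of the set, and no comparison called either. *Rps6ka1* (RSK1, NM_009097, chr4:133847290-133887797) was at 8.09, 9.14 and 8.30 CPM in *Ago2* fl/fl, 8.92, 8.51 and 9.16 in *Ago2* ADH and 7.82 and 7.90 in *Ago2* null libraries. It was at 7.52, 6.30 and 6.53 CPM in *Dicer* WT and 7.39, 7.78 and 8.26 CPM in *Dicer* KO libraries, and all neighbouring groups in the order of means overlapped except *Ago2* fl/fl and *Ago2* null. With 220 to 540 counts per library, its intervals were wide. On the log2 scale that for *Ago2* ADH ran from -0.14 to 0.35, that for *Ago2* null from -0.35 to 0.20 and that for *Dicer* KO from -0.13 to 0.54 (adjusted p = 0.462, 0.657 and 0.301, edgeR). The exons of *Rps6ka1* overlap those of *Gm12977* on the opposite strand by 117 bases, and the counting did not use strand, so reads there cannot be assigned.

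*Rps6ka3* (RSK2, NM_148945, chrX:159255665-159368244) was at 17.4, 18.1 and 19.0 CPM in *Ago2* fl/fl, 15.4, 14.8 and 16.6 in *Ago2* ADH and 14.7 and 14.5 in *Ago2* null libraries. It was at 29.2, 22.8 and 25.7 CPM in *Dicer* WT and 23.0, 25.4 and 24.6 CPM in *Dicer* KO libraries. Thus the *Ago2* mutants lay below their controls without overlap and the *Dicer* groups overlapped. The log2 fold change was -0.18 in *Ago2* ADH (95% interval -0.37 to 0.02, adjusted p = 0.122, edgeR), -0.28 in *Ago2* null (-0.49 to -0.06, adjusted p = 0.0321) and -0.08 in *Dicer* KO oocytes (-0.31 to 0.14, adjusted p = 0.543), none past an FDR of 1%. The highest means were in *Dicer* WT and *Dicer* KO oocytes, followed by *Ago2* fl/fl, then *Ago2* ADH and last *Ago2* null, and only the *Dicer* pair overlapped.

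Most RSK mRNA came from *Rps6ka6* (RSK4), which made up 73.6% ± 0.679 of the summed per-kb counts of the 4 RSK genes in *Ago2* fl/fl (SD, n = 3) and 78.5% ± 1.03 in *Dicer* WT oocytes (n = 3). It was down-regulated by 0.50 in *Ago2* ADH (SE 0.0609, adjusted p = 1.40e-06), by 0.52 in *Ago2* null (SE 0.0779, adjusted p = 3.68e-05) and by 0.49 in *Dicer* KO oocytes (SE 0.0694, adjusted p = 1.08e-05). Its share was 66.6% ± 1.72 in *Ago2* ADH (n = 3), 68.6% ± 2.36 in *Ago2* null (n = 2) and 71.8% ± 1.92 in *Dicer* KO oocytes (n = 3).

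*Fbxo43* (NM_001081253, chr15:36150060-36169940) encodes EMI2, the APC/C inhibitor on which the arrest depends, and was down-regulated in each mutant. It was at 93.3, 91.6 and 100.4 CPM in *Ago2* fl/fl, 68.3, 71.5 and 64.6 in *Ago2* ADH and 66.8 and 62.5 in *Ago2* null libraries. It was at 114, 109 and 119 CPM in *Dicer* WT and 88.0, 92.5 and 80.1 CPM in *Dicer* KO libraries. No mutant library overlapped its own controls, although *Dicer* KO overlapped *Ago2* fl/fl. The log2 fold change was -0.43 in *Ago2* ADH (SE 0.0592, adjusted p = 5.74e-06, edgeR), -0.52 in *Ago2* null (SE 0.0697, adjusted p = 1.19e-05) and -0.38 in *Dicer* KO oocytes (SE 0.0696, adjusted p = 0.000169), and these calls held with each library left out. By mean level the order was *Dicer* WT, *Ago2* fl/fl, *Dicer* KO, *Ago2* ADH and *Ago2* null, where *Ago2* ADH and *Ago2* null also overlapped.

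Its relative *Fbxo5* encodes EMI1, an APC/C inhibitor that acts earlier in meiosis, and moved the other way. *Fbxo5* was up-regulated by 0.51 in *Ago2* ADH (SE 0.0602, adjusted p = 9.04e-07), by 0.48 in *Ago2* null (SE 0.0667, adjusted p = 1.58e-05) and by 0.67 in *Dicer* KO oocytes (SE 0.0716, adjusted p = 3.59e-07). The *Fbxo43* to *Fbxo5* ratio per kb was 0.558 ± 0.0396 in *Ago2* fl/fl, 0.290 ± 0.0254 in *Ago2* ADH, 0.280 ± 0.0299 in *Ago2* null, 0.862 ± 0.0460 in *Dicer* WT and 0.417 ± 0.0318 in *Dicer* KO oocytes.

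*Plk1* (NM_011121, chr7:122159435-122169884), a Polo-like kinase, showed the smallest of the called changes. It was at 181, 178 and 161 CPM in *Ago2* fl/fl, 145, 148 and 136 in *Ago2* ADH and 149.5 and 123 in *Ago2* null libraries. It was at 141, 153 and 162 CPM in *Dicer* WT and 141, 140.1 and 129 CPM in *Dicer* KO libraries, where the closest libraries of the groups differed by less than 1 CPM. *Plk1* was down-regulated by 0.23 in *Ago2* ADH (SE 0.0534, adjusted p = 0.00142, edgeR) and by 0.31 in *Ago2* null oocytes (SE 0.0768, adjusted p = 0.00334). With a library left out, the *Ago2* ADH call held in 5 of 6 fits and was lost without *Ago2* fl/fl replicate 2, where the log2 fold change was -0.21 (adjusted p = 0.0131). The *Ago2* null call was lost in 3 of 5 fits, without *Ago2* fl/fl replicate 1 (-0.27, adjusted p = 0.0121), *Ago2* fl/fl replicate 2 (-0.28, adjusted p = 0.0223) or *Ago2* null replicate 2 (-0.18, adjusted p = 0.0630), and only the last of these moved the fold change by over 1.5 times. In *Dicer* KO oocytes the log2 fold change was -0.15 (95% interval -0.29 to -0.01, adjusted p = 0.0819), not past an FDR of 1%, though total count scaling gave -0.21 (adjusted p = 0.00788). The exons of *Plk1* overlap those of *Gm44985* on the opposite strand by 156 bases, where reads cannot be assigned. In the order of mean levels each group of *Plk1* overlapped the next.

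Counted by separation instead of by test, 5 of the 7 genes did not overlap between *Ago2* ADH and *Ago2* fl/fl libraries (60.0% of all transcripts did not), 6 between *Ago2* null and *Ago2* fl/fl (66.9%) and 5 between *Dicer* KO and *Dicer* WT (54.7%). The median log2 fold change of the 7 genes was -0.18, -0.28 and -0.08 in the 3 comparisons, beside 0.01, 0.00 and -0.00 over all transcripts tested. The *Ago2* null median was -0.18 without *Ago2* null replicate 2. The *Dicer* KO median was 0.01 without *Dicer* WT replicate 1 and as low as -0.15 with another library left out, so its sign rested on 1 library.

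**Figure D4:**
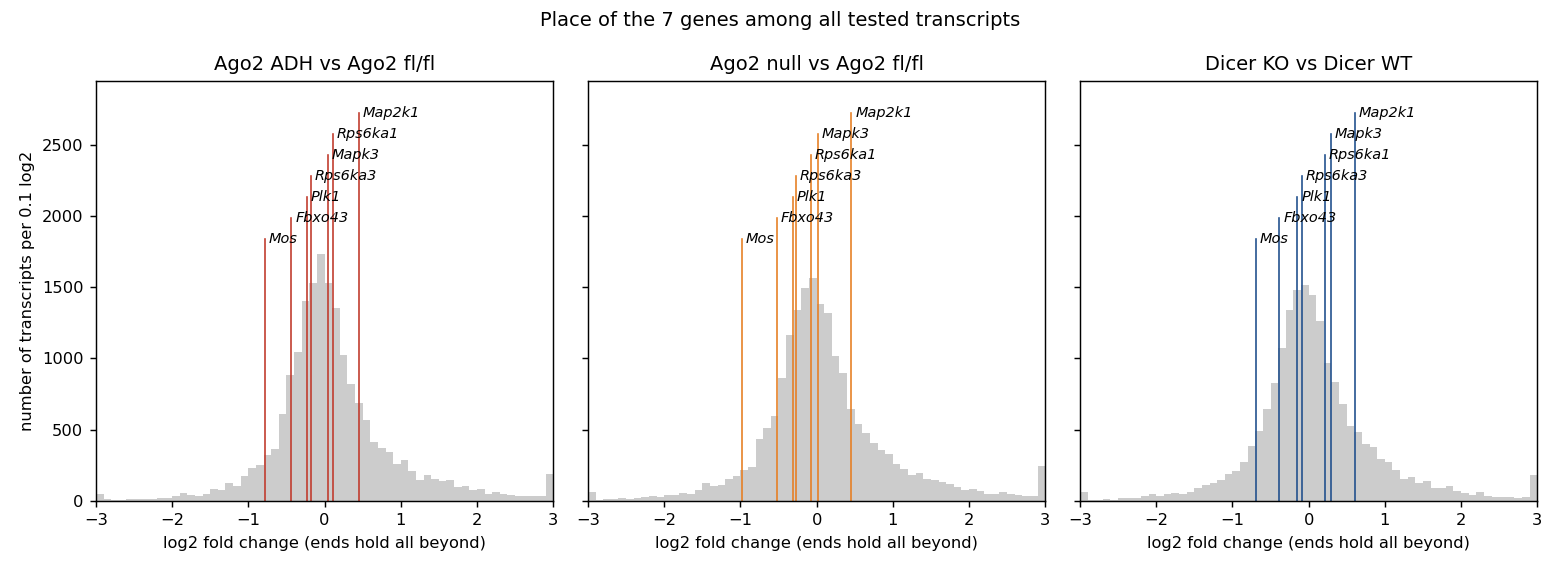
Histograms of the log2 fold changes of all transcripts tested (x axis, bins of 0.1, y axis number of transcripts, end bins holding all values beyond 3) with a line at each of the 7 genes, for the 3 mutant comparisons. *Mos* lies in the lower tail, with 7.84%, 6.27% and 10.9% of transcripts below it, and the other genes lie nearer the centre.

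*Ago2* ADH oocytes, with a single catalytically inactive allele, and *Ago2* null oocytes were also compared directly. *Ago2* mRNA itself was lower in *Ago2* ADH than in *Ago2* fl/fl oocytes (log2 fold change -0.87, SE 0.0879, adjusted p = 1.27e-07, edgeR), so loss of cleavage and a lower dose of *Ago2* cannot be told apart in that group. None of the 7 genes was called at an FDR of 1% by edgeR or by DESeq2, where 0.119% of 19306 transcripts were called by edgeR. At an unadjusted p under 0.05 edgeR gave 1 gene, against 10% of all transcripts. That gene was *Mos*, with a log2 fold change of 0.18 in *Ago2* ADH over *Ago2* null (SE 0.0688, 95% interval 0.04 to 0.33, adjusted p = 0.371). Its libraries did not overlap, as for 26.0% of all transcripts. The intervals for the other genes were between -0.16 and 0.45 on the log2 scale.

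Whether a gene changed to different extents in *Ago2* ADH and *Dicer* KO oocytes was tested as an interaction over the 12 libraries. No gene of the set was called by edgeR or DESeq2, where edgeR called 3.55% of 19500 transcripts. At an unadjusted p under 0.05 edgeR gave 2 genes, against 23.3% of transcripts. They were *Mapk3*, with a difference of -0.30 (*Ago2* ADH effect minus *Dicer* KO effect, SE 0.0798, adjusted p = 0.0209), and *Map2k1*, with -0.21 (SE 0.0801, adjusted p = 0.113). For *Mos* the difference was -0.14 (95% interval -0.30 to 0.02, adjusted p = 0.298) and for *Fbxo43* -0.10 (-0.29 to 0.09, adjusted p = 0.549).

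The other genes of the pathway were taken from 5 lists of 78 genes in all. Of these 77 were tested, since *Msi1* was under the filter. In *Ago2* ADH oocytes 11 were up-regulated and 21 down-regulated, or 41.6% called, in *Ago2* null oocytes 13 and 19, again 41.6%, and in *Dicer* KO oocytes 10 and 16, or 33.8%. These shares were near those of all transcripts (40.7%, 37.2% and 34.5%). In *Ago2* ADH, *Ago2* null and *Dicer* KO oocytes in turn, the MAPK cascade list of 13 had 2, 2 and 3 genes up and 6, 5 and 4 down. The list of EMI2 partners and APC/C genes (30) had 5, 5 and 4 up and 4, 5 and 6 down. Cyclin B-CDK1 and its regulators (14) had 2, 3 and 0 up and 3, 1 and 1 down, the Polo-like kinases and partners (8) had 1, 1 and 3 up and 4, 4 and 0 down, and the list for translation of *Mos* mRNA (12 tested) had 1, 2 and 0 up and 4, 4 and 5 down. Each of the 14 libraries, when left out, moved at least 1 of these list counts by over 1.5 times. The Polo-like list in *Ago2* ADH oocytes, for example, had 1 to 4 genes down.

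**Figure D5:**
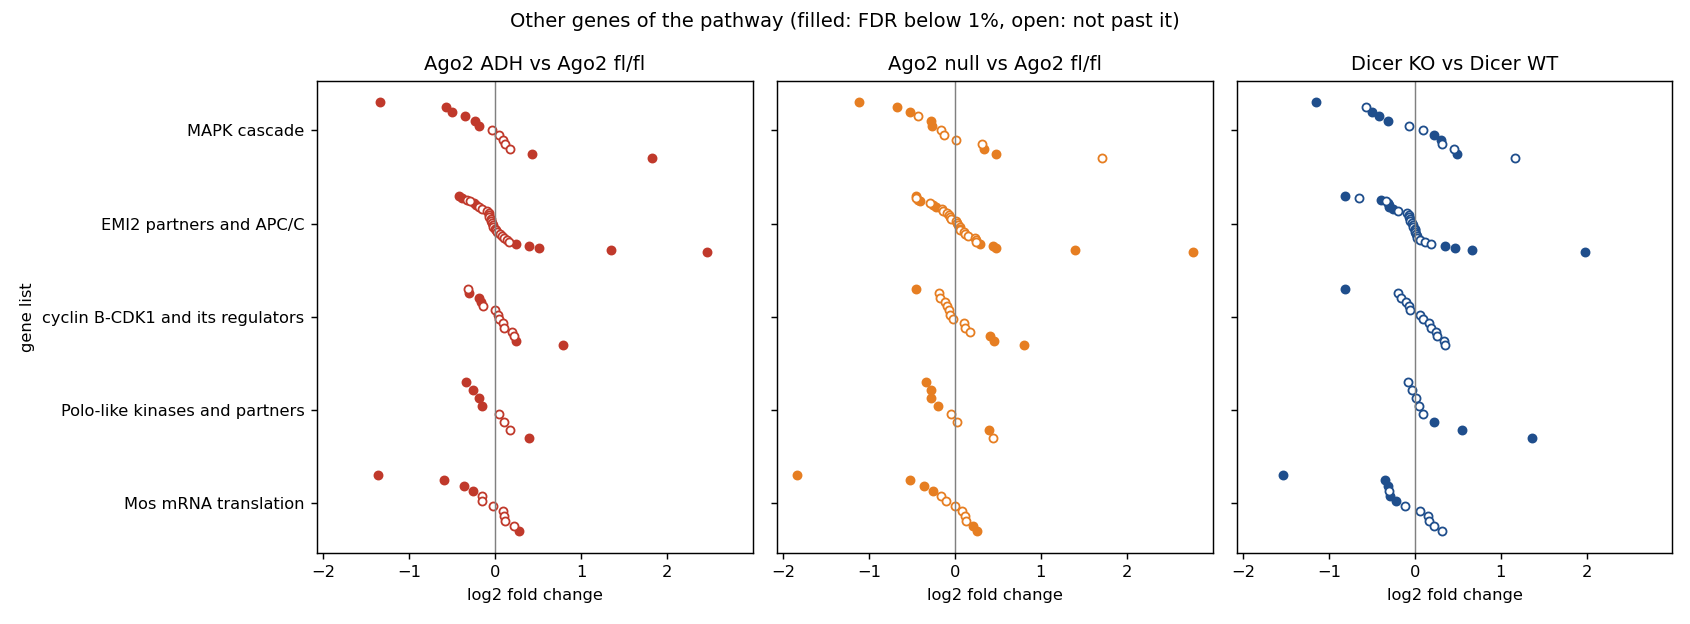
Log2 fold changes (x axis) of the genes of the 5 pathway lists (y axis) in the 3 mutant comparisons. Each point is a gene, filled if past an FDR of 1%. *Ksr1* and *Msi2* are the lowest of their lists in each comparison.

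Of the 77 genes, 16 were called in the same direction in all 3 comparisons, 12 down and 4 up. The share of all transcripts called so was not counted, and the *Ago2* comparisons share controls, so nothing is read from these numbers. For 9 of the 16 every call held with any library left out. In the MAPK cascade these were *Rps6ka6* (above) and *Ksr1*, a scaffold that brings RAF, MEK and ERK together, with log2 fold changes of -1.35 in *Ago2* ADH (SE 0.126, adjusted p = 4.65e-08), -1.12 in *Ago2* null and -1.15 in *Dicer* KO oocytes. *Ksr1* had 11.4 ± 0.491 CPM in *Ago2* fl/fl and 4.33 ± 0.544 in *Ago2* ADH libraries (SD, n = 3 each). Around EMI2 they were *Fbxo5* (above), *Cul1*, *Cdc27* and *Ube2c*. *Cul1*, the scaffold of the SCF ubiquitin ligase, changed by -0.43, -0.45 and -0.31, and *Cdc27*, an APC/C subunit, by -0.39, -0.41 and -0.26. *Ube2c*, the ubiquitin-conjugating enzyme that starts chains for the APC/C, rose by 1.35, 1.40 and 1.98, from 164 ± 12.6 to 404 ± 18.0 CPM in *Ago2* ADH and from 135 ± 7.60 to 529.6 ± 9.61 CPM in *Dicer* KO oocytes (SD, n = 3 each).

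In the list for translation of *Mos* mRNA the genes called in all 3 with every library left out were *Msi2*, *Cpeb1* and *Btg4*. *Msi2*, a Musashi RNA-binding protein gene, changed by -1.37 in *Ago2* ADH (SE 0.118, adjusted p = 1.55e-08), -1.84 in *Ago2* null and -1.53 in *Dicer* KO oocytes. It had 26.0 ± 1.90 CPM in *Ago2* fl/fl, 9.73 ± 2.06 in *Ago2* ADH (SD, n = 3 each) and 7.05 ± 0.0522 in *Ago2* null libraries (n = 2). *Cpeb1*, which binds cytoplasmic polyadenylation elements, changed by -0.36, -0.37 and -0.29, and *Btg4*, an adaptor for deadenylation of maternal mRNA, by -0.26, -0.26 and -0.31.

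The other 7 genes called in all 3 lost a call with at least 1 library left out. Among them were the following. *Bub1* (log2 fold changes 0.39, 0.40 and 0.55), a kinetochore kinase, lost its *Ago2* null call without *Ago2* null replicate 2, where the log2 fold change was 0.23 (adjusted p = 0.0105), and the *Ago2* null fits with a library left out ranged from 0.23 to 0.55. *Braf* (-0.57, -0.68 and -0.41), a RAF kinase, lost its *Dicer* KO call without *Dicer* WT replicate 2 or *Dicer* KO replicate 1 or 2 (adjusted p up to 0.0448), with a range over these fits of -0.47 to -0.32. *Cpeb4* (-0.60, -0.53 and -0.34) lost its *Dicer* KO call without *Dicer* WT replicate 1 or 3 or *Dicer* KO replicate 2 (up to 0.0545), with a range of -0.42 to -0.25. *Camk2g* (-0.23, -0.22 and -0.30), the calcium-dependent kinase that acts on EMI2 at fertilization, lost its *Ago2* null call without any *Ago2* fl/fl library or *Ago2* null replicate 2 (up to 0.0443, range -0.25 to -0.18), and its *Dicer* KO call without *Dicer* WT replicate 2 (0.0139, range -0.38 to -0.26). *Anapc10* (0.40, 0.44 and 0.35), an APC/C subunit, lost its *Ago2* ADH call without *Ago2* ADH replicate 1 (0.0131, range 0.32 to 0.46) and its *Dicer* KO call without any of the 6 libraries (up to 0.0472, range 0.28 to 0.40). *Ppp2r1a* (-0.24, -0.43 and -0.30), a scaffold of phosphatase PP2A, lost a call in each comparison, in *Ago2* ADH without *Ago2* fl/fl replicate 2 or 3 or *Ago2* ADH replicate 1 or 2 (up to 0.0461, range -0.29 to -0.18), in *Ago2* null without *Ago2* null replicate 2 (0.0138, range -0.58 to -0.29), and in *Dicer* KO without *Dicer* WT replicate 1 or 3 or *Dicer* KO replicate 1 or 2 (up to 0.0607, range -0.37 to -0.23).

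Among genes called in none of the 3, the highest per kb in their lists included *Skp1*, an SCF subunit, at 1214 CPM per kb. Others were *Wee2*, the oocyte kinase that inhibits CDK1, at 226 and *Tent2*, a poly(A) polymerase, at 18.3 CPM per kb. In the Polo-like list *Plk2* was the only gene called in none, at 0.503 CPM per kb. Its change was imprecise (SE 0.271 on the log2 scale in *Ago2* ADH). *Wee2* had 609.8 ± 18.6 CPM in *Ago2* fl/fl and 589 ± 9.67 in *Ago2* ADH libraries (SD, n = 3 each), a log2 fold change of -0.00 (adjusted p = 0.964).

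For each gene the log2 level was centred on the mean of its own series (*Ago2* or *Dicer*), so gaps between the series do not count. On these values over the 14 libraries, 7260 genes with a mean of at least 10 CPM were compared. Those most like *Mos* were *Mtus1* (Pearson r = 0.993) and *Nin* (r = 0.992). For *Map2k1* they were *Phf6* (0.992) and *Tcea1* (0.990). For *Fbxo43* they were *Ppfia1* (0.978) and *Sipa1l1* (0.977), for *Plk1* *Dcp1a* (0.963) and *Stau1* (0.957), for *Mapk3* *Rad51d* (0.927) and *Rnasek* (0.924), and for *Rps6ka3* *Mia3* (0.924) and *Nckap1* (0.905). Libraries of a group share their genotype, and those of an *Ago2* group also a lane, so the libraries are not independent points. Depth also differed between libraries. Patterns like that of *Mos* were common, as 1115 genes had r above 0.9 with it, against 12 for *Mapk3* and 2 for *Rps6ka3*. *Rps6ka1* was under the level needed. Which genes were most alike depended on the measure. By Spearman rank correlation *Nin* was at rank 76 for *Mos*, *Sipa1l1* at rank 33 for *Fbxo43* and *Rad51d* at rank 20 for *Mapk3*. The other genes named as alike were at ranks 1 to 11.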

How the data were processed

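The authors made amplified cDNA from oocyte lysates, sequenced it as paired ends, aligned the reads to mm10 and refGene transcripts and deposited raw read counts per transcript, without normalization, from htseq-count run in its strict intersection mode without strand. Per the submitters' processing notes the tools were TopHat2 2.0.7, HTSeq 0.6.1 and DESeq 1.10.0. Shorter and longer reads were aligned with different mismatch limits, and which libraries had which is not given in the sources used here, so levels set across the *Ago2* and *Dicer* series may carry this difference. The 5 tally entries below the transcripts (reads outside transcripts, with several alignments and the like) stayed out of library sizes and tests.

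Groups and replicate numbers came from the sample labels. Of 26495 transcript IDs, 26081 were paired with symbols by RefSeq and 113 by GENCODE, both on GRCm38, which is mm10. The transcript with the highest mean count stood for a gene. Transcripts passing filterByExpr (minimum count 10, minimum total count 15) were normalized by TMM and tested on the libraries of each comparison in edgeR 4.0.16 (R 4.3.3, limma 3.58.1) with the quasi-likelihood test and Benjamini-Hochberg adjustment over all transcripts tested. The SE is the absolute log2 fold change divided by the square root of F. The procedure was tested on simulated data with known changes. Sequences and motifs were read from the GENCODE transcripts on GRCm38. Libraries of a group differed beyond counting error (chi-square per degree of freedom 6.35 to 14.3). The 95% intervals come from this SE and the t distribution on the fit's moderated degrees of freedom. The counting error given for *Mos* treats amplified reads, which carry no molecular identifiers, as independent.

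The genes named were the 7 pathway genes, list genes called in all 3 mutant comparisons, and the highest per-kb gene called in none in each list. Some results for list genes are not reported here. Members and lists were chosen with earlier results of these data known. Alternatives were DESeq2 1.42.0, RLE normalization, other filters, an FDR of 5%, 1 transcript per gene, summed transcripts, all 5 groups in one fit, a replicate block and each library left out. Total count scaling was added after seeing the data.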

Additional observations from a re-analysis of the deposited data

Results flagged for a closer look

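No gene of the set of 7 stood out by the rules applied, and groups of 2 or 3 libraries were too small to look for a library far from the others. Among the other pathway genes, 4 of 77 had effects that differed between *Ago2* ADH and *Dicer* KO oocytes at an FDR of 1%. This was edgeR's interaction test (*Ago2* ADH effect minus *Dicer* KO effect), which called 5.19% of these genes and 3.55% of all 19500 transcripts. With so few genes nothing is read from the count, and the 4 are named here after their values were seen. *Dusp1*, a phosphatase gene that acts on MAP kinases, differed by -0.776 (adjusted p = 1.67e-05), with log2 fold changes of -0.23 for *Ago2* ADH and 0.49 for *Dicer* KO. The *Ago2* ADH value itself was not past 1% without *Ago2* fl/fl replicate 2 or *Ago2* ADH replicate 3 (adjusted p up to 0.0226), while the difference was past it with each library left out (from -0.85 to -0.72). *Ube2c* differed by -0.686 (adjusted p = 9.07e-06), up-regulated by 1.35 and 1.98, and kept this call with each library left out. *Ppp2cb*, a PP2A catalytic subunit gene of low level (0.940 ± 0.299 CPM in *Ago2* fl/fl and 5.02 ± 0.939 CPM in *Ago2* ADH libraries, SD, n = 3 each), differed by 2.221 (adjusted p = 0.00711), a call lost in 7 of 12 fits with a library left out (adjusted p up to 0.0305), with the difference between 1.84 and 2.77. *Cdc20*, an APC/C activator, differed by -0.551 (adjusted p = 0.00967), a call lost in 11 of these 12 fits (up to 0.0374), with the difference between -0.68 and -0.44.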

How the results depend on the processing

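Under 10 alternatives, and without any single library, the calls of *Mos*, *Map2k1* and *Fbxo43* in the 3 mutant comparisons and of *Mapk3* in *Dicer* KO oocytes stayed past an FDR of 1% in the same direction. On the log2 scale *Mos* ranged from -0.83 to -0.75 (*Ago2* ADH), -1.05 to -0.92 (*Ago2* null) and -0.76 to -0.67 (*Dicer* KO), and *Map2k1* from 0.40 to 0.48, 0.39 to 0.52 and 0.55 to 0.64. At an FDR of 5%, 1 gene (*Mapk3*) passed as lower in the interaction, and *Rps6ka3* passed in *Ago2* null oocytes. Uncalled values near 0 changed sign. *Mapk3* was -0.004 for *Ago2* ADH and -0.011 for *Ago2* null oocytes with all 5 groups in one fit, and -0.003 and -0.006 with total count scaling. With a library left out, *Rps6ka3* ranged from -0.176 to 0.008 and *Ppp2cb* from -0.348 to 0.577 in *Dicer* KO oocytes, and in *Ago2* ADH vs. *Ago2* null *Map2k1* ranged from -0.078 to 0.037, *Mapk3* from -0.029 to 0.048 and *Plk1* from -0.071 to 0.206. The cause was not tested. Where 1 *Ago2* null library was left, it was assumed to vary like the other groups. The replicate numbers shared by the labels did not meet the bar for pairing (every r over 0.1 with 3 or more pairs). The deviations of libraries that share a number correlated with a mean r of 0.0343 for *Ago2* ADH (2 of 3 best with their own number), -0.0899 for *Ago2* null and -0.0901 for *Dicer* KO (1 of 3) against their controls, and 0.0551 between *Ago2* ADH and *Ago2* null (2 of 2 best with their own number). With the replicate number as a block, the members called stayed at 1 up and 3 down, 1 up and 3 down, and 2 up and 2 down, and all calls came to 7679, 6041 and 5678 against 7663, 7157 and 6412. In *Ago2* ADH vs. *Ago2* null, where 23 transcripts were called, the block gave 142, DESeq2 81, no filter 94, an FDR of 5% 56, summed transcripts 11, and 9, 13 and 6 without *Ago2* ADH replicate 1, *Ago2* null replicate 1 and *Ago2* null replicate 2. The interaction had 692 calls, 33.8% of them higher, and DESeq2 gave 1104 with 46.5% higher, an FDR of 5% 1638, summed transcripts 434, total count scaling 697 with 49.6% higher, and 439 without *Ago2* ADH replicate 1. Depth limits *Rps6ka1* most, at 220 to 540 counts per library.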
